A study of Homo sapiens with 4 samples.

Results

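Genes best known from the lining of blood vessels were followed in thyroid carcinoma cells: CDH5, ESM1, TM4SF1, TM4SF18, ADGRL4, PECAM1, VWF and ENG, 8 of the 58884 genes measured. They were taken by name, with earlier results on their levels in these same libraries known, so those levels are given as a description and not as a test. All 8 names matched an Ensembl identifier. RNA-seq of total RNA was compared in 4 libraries of human cell lines: 8505C with a CRABP1-overexpressing vector, 8505C with an empty vector, FTC-133 with a CRABP1-overexpressing vector and FTC-133 with an empty vector. The line 8505C comes from an anaplastic (undifferentiated) thyroid carcinoma and FTC-133 from a follicular one. CRABP1 is a cytoplasmic carrier of retinoic acid. Each group held 1 library, so no value has a replicate error, and whether a line with CRABP1 was 1 clone or a pool is not given in the sources used here.

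Endothelial cells hold to each other through VE-cadherin (CDH5) and PECAM1, store von Willebrand factor (VWF) for release into blood, and read BMP9 and BMP10 through the co-receptor endoglin (ENG). They also secrete endocan (ESM1) and carry the membrane proteins TM4SF1, TM4SF18 and ADGRL4. Several of these genes are not exclusive to vessels: PECAM1 and VWF are also made by platelets or their precursors, ENG by mesenchymal cells, and TM4SF1 was described as a tumour-associated antigen of carcinomas.

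The values are TPM, read counts per unit of gene length that sum to the same total in every library, so levels of different genes can be compared. About 19304266 and 19174553 reads lay behind the values of 8505C with CRABP1 and with vector, and 20309225 and 20331470 behind those of FTC-133 with CRABP1 and with vector. The transfected gene was at 537 TPM with CRABP1 and listed at 0 TPM with vector in 8505C, and at 385 TPM with CRABP1 and listed at 0 TPM with vector in FTC-133. Mitochondrially encoded genes held between 25.9% and 28.6% of the TPM.

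The genes lie on several chromosomes (GRCh38, GENCODE 29). TM4SF1 (ENSG00000169908) spans 149369022 to 149377865 and TM4SF18 (ENSG00000163762) 149318498 to 149334414, both on the minus strand of chromosome 3 with 43451 bases between their starts. CDH5 (ENSG00000179776) spans 66366622 to 66404786 on the plus strand of chromosome 16. ESM1 (ENSG00000164283) spans 54977864 to 55022671 on the minus strand of chromosome 5, and ADGRL4 (ENSG00000162618) 78889764 to 79006718 on the minus strand of chromosome 1. ENG (ENSG00000106991) lies on chromosome 9 at 127815012 to 127854756, PECAM1 (ENSG00000261371) on chromosome 17 at 64319415 to 64413776 and VWF (ENSG00000110799) on chromosome 12 at 5948874 to 6124770, all on the minus strand.

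Promoter windows of 300 bases, from 250 before to 50 after the gene start, were held by RefSeq (GRCh38.p14) for 5 of the 8 genes. Shown here are the 4 whose RNA was high in 1 line and low in the other, since they are the sequences in front of the genes the results turn on. The RefSeq starts of TM4SF1, TM4SF18 and ESM1 lie inside the GENCODE gene spans given above. The windows read 5′ to 3′ along the gene, at chr3:149377600-149377899 (TM4SF1), chr3:149333587-149333886 (TM4SF18), chr5:54985544-54985843 (ESM1) and chr1:79006681-79006980 (ADGRL4), all on the minus strand. Capitals mark matches on either strand to short motifs of transcription factors. The ETS family was searched by the letters CCGGAA and by the letters CAGGAA. TEAD factors were searched by GGAATG and AP-1 by TGANTCA, where N is any base. SOX factors were searched by AACAAT, factors of the GATA family by AGATAA, and the core promoter box by the letters TATAAA.
TM4SF1: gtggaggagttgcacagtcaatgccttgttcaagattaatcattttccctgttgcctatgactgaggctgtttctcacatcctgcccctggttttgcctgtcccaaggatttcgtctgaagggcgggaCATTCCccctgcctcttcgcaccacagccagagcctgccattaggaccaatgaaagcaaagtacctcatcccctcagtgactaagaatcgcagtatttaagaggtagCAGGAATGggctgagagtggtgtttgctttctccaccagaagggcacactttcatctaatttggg
TM4SF18: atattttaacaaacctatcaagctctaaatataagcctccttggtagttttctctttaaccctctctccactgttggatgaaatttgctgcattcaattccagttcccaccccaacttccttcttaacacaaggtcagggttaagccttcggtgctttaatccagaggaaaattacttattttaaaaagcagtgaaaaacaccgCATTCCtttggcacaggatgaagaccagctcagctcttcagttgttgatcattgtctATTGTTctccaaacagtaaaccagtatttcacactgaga
ESM1: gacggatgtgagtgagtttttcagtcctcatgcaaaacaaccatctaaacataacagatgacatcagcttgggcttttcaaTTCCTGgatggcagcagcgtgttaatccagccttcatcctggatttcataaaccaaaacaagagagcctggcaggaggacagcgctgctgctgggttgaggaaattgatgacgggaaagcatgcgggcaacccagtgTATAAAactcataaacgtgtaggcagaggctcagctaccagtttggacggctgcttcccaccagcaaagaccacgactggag
ADGRL4: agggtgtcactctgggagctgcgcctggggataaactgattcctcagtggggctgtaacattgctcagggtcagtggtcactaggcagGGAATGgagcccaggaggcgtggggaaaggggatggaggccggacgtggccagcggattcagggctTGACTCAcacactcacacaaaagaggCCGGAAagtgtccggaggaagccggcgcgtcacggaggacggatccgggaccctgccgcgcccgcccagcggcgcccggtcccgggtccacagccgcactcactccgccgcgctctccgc
The windows shared few of these letters. GGAATG was found 2 times in TM4SF1 and 1 time each in TM4SF18 and ADGRL4, and is held by 14.0% of 35116 RefSeq windows of this length. An ETS match was CAGGAA in TM4SF1, where it overlaps the second GGAATG, and in ESM1, and CCGGAA in ADGRL4. These letters are held by 28.4% (CAGGAA) and 17.2% (CCGGAA) of windows. TM4SF18 had AACAAT (10.1% of windows), ESM1 TATAAA (11.5%) at 32 bases before its start and ADGRL4 TGANTCA (7.71%), while AGATAA (10.3%) was in none of the 4. The window of ENG held CAGGAA 1 time and no other motif. GC content was 50.0% in TM4SF1, 39.3% in TM4SF18, 49.3% in ESM1, 66.7% in ADGRL4 and 68.3% in ENG, around a median of 58.7% over all windows. A match describes the letters and was not tested for binding.

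CDH5, ESM1, TM4SF1 and TM4SF18 were abundant in 8505C and near or at the detection floor, or at a few TPM, in FTC-133. CDH5, the cadherin of endothelial adherens junctions, was at 97.9 TPM in 8505C with CRABP1 and 103 TPM in 8505C with vector, against 0.125 TPM in FTC-133 with CRABP1 and 0 TPM in FTC-133 with vector. Both FTC-133 values rest on 4 and 0 reads, where 3 reads are worth 0.0935 TPM with CRABP1 and 0.0906 TPM with vector. ESM1, a secreted proteoglycan, was at 103 and 133 TPM in 8505C with CRABP1 and with vector, against 0.352 TPM from 5 reads and 0 TPM in FTC-133 with CRABP1 and with vector. Each 8505C library held at least 1412 reads of either gene, so the lines did not overlap.

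TM4SF1, a surface protein that crosses the membrane several times, was the highest of the 8 genes in 8505C. It was at 548 TPM in 8505C with CRABP1 and 590 TPM in 8505C with vector, against 9.49 TPM in FTC-133 with CRABP1 and 4.99 TPM in FTC-133 with vector. Its 8505C levels ranked 162 and 142 among the 19945 protein-coding genes with CRABP1 and with vector. TM4SF18, a member of the same family, was at 79.5 and 84.3 TPM in 8505C with CRABP1 and with vector, against 0.304 and 0.126 TPM in FTC-133 with CRABP1 and with vector, the last 2 from 7 and 3 reads. TM4SF1 was thus above its floor in both lines, while TM4SF18 was close to it in FTC-133.

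ADGRL4, an adhesion G-protein-coupled receptor of the latrophilin group, had the opposite pattern. It was at 0.160 TPM in both 8505C libraries, from 3 reads each, against 252 TPM in FTC-133 with CRABP1 and 132 TPM in FTC-133 with vector. It was the highest of the 8 genes in FTC-133, with rank 387 with CRABP1 and rank 922 with vector among protein-coding genes.

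ENG, the co-receptor for BMP9, differed little between libraries: 91.1 TPM in 8505C with CRABP1, 111 TPM in 8505C with vector, 97.3 TPM in FTC-133 with CRABP1 and 103 TPM in FTC-133 with vector. The lines overlapped in ENG. PECAM1, an adhesion receptor of the immunoglobulin superfamily, was low, at 2.19 and 3.68 TPM in 8505C with CRABP1 and with vector and at 1.44 and 1.76 TPM in FTC-133 with CRABP1 and with vector. VWF was near its floor in 8505C, at 0.0380 TPM from 2 reads with CRABP1 and 0.170 TPM from 9 reads with vector, and was at 0.274 TPM from 15 reads with CRABP1 and 0.813 TPM from 46 reads with vector in FTC-133. For PECAM1 both 8505C libraries lay above both FTC-133 libraries, and for VWF below them, at few reads.

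**Figure D1:**
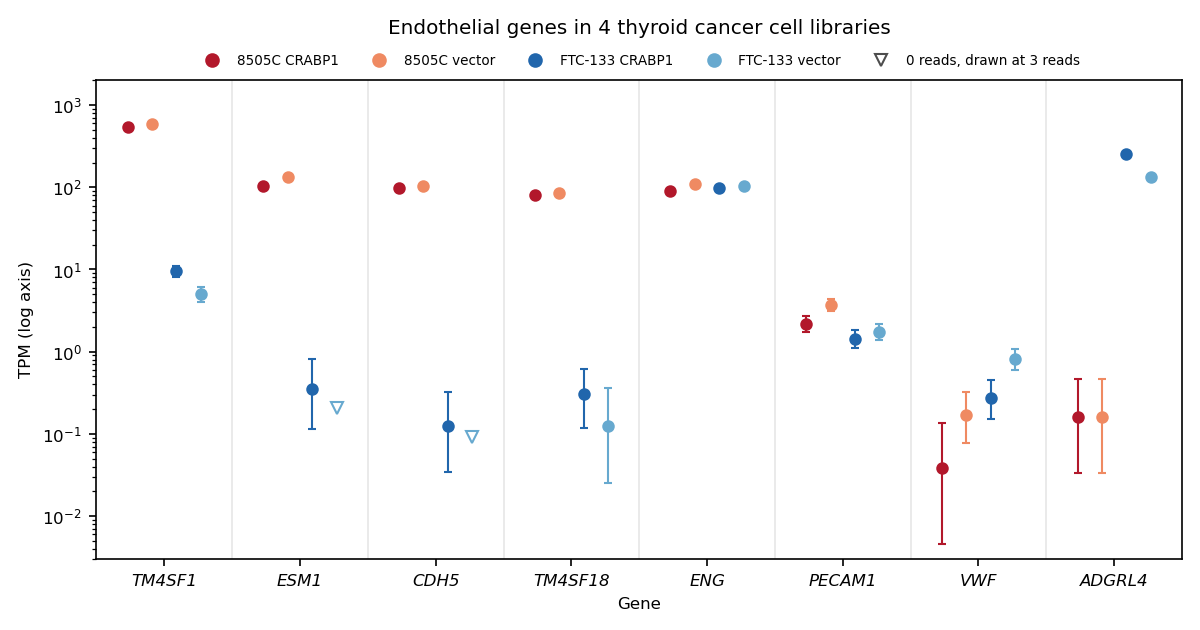
TPM (log axis) of the 8 genes in the 4 libraries, with bars for the exact 95% Poisson interval of the reads; open triangles stand for 0 reads and are drawn at the level of 3 reads. TM4SF1, ESM1, CDH5 and TM4SF18 lie at 79.5 to 590 TPM in 8505C and at most 9.49 TPM in FTC-133, ADGRL4 at 132 to 252 TPM in FTC-133, and ENG lies between 91.1 and 111 TPM in every library.

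The order of the levels differed between the lines. In 8505C with CRABP1 it ran from TM4SF1 through ESM1, CDH5, ENG, TM4SF18 and PECAM1 to ADGRL4 and VWF; with vector ENG stood above CDH5 and VWF above ADGRL4. By counting intervals ESM1 and CDH5, and CDH5 and ENG, overlapped with CRABP1, as did CDH5 and ENG with vector and ADGRL4 and VWF in both libraries. In FTC-133 the order was ADGRL4, ENG, TM4SF1 and PECAM1 in both libraries, followed with CRABP1 by ESM1, TM4SF18, VWF and CDH5, whose intervals overlapped, and with vector by VWF, TM4SF18 and the genes listed at 0. These intervals cover counting error only.

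As ratios of 8505C over FTC-133, the differences of the first 4 genes were large in both pairs of libraries. With CRABP1, TPM was 785-fold higher in 8505C for CDH5 (95% Clopper-Pearson interval of the read ratio 307 to 2885), 293-fold for ESM1 (126 to 906), 57.8-fold for TM4SF1 (49.8 to 67.1) and 261-fold for TM4SF18 (130 to 669). With vector it was at least 1137-fold higher for CDH5 and at least 651-fold for ESM1, taking 3 reads as the FTC-133 floor, 118-fold higher for TM4SF1 (96.9 to 145) and 667-fold for TM4SF18 (234 to 3329). ADGRL4 was 1574-fold lower in 8505C with CRABP1 (536 to 7608) and 824-fold lower with vector (281 to 3984). PECAM1 had ratios of 1.52 (1.08 to 2.15) and 2.10 (1.57 to 2.81) with CRABP1 and with vector, and ENG of 0.936 (0.878 to 0.998) and 1.08 (1.02 to 1.15).

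Genes were counted on log2 of TPM plus 1 where they averaged 1 TPM or more, which 7 of the 8 genes reached and VWF did not. With CRABP1, 4 of the 7 were at least 2-fold higher in 8505C and 1 was lower, and the same holds with vector. Over all genes, 34.3% passed 2-fold with CRABP1 (11.3% higher and 23.0% lower in 8505C) and 33.7% with vector (12.1% higher and 21.6% lower). The members were chosen by these levels, so nothing is read from that contrast. Libraries of bulk RNA cannot tell fewer cells of a kind from less RNA per cell, and the lines also differ in the median of all genes, by a log2 ratio of -0.21 with CRABP1 and -0.17 with vector.

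The genes with the most similar profile to each member were also listed, and these are alike by the way they were picked. The search used the root mean square difference of log2(TPM + 1), centred on each gene's mean, over 4 libraries and 14498 other protein-coding genes. CDH5 and ESM1 were each other's nearest gene, at 0.15. After ESM1, CDH5 was nearest to SMOC1, a secreted calcium-binding protein, at 0.16 and to PERP, a desmosomal membrane protein, at 0.23. After CDH5, ESM1 was nearest to STMN3, a stathmin, at 0.18 and to SMOC1 at 0.20. The nearest genes of TM4SF1 were MSLN, which encodes mesothelin, at 0.18, PERP at 0.19 and SMOC1 at 0.20, followed by TM4SF18 at 0.21. Those of TM4SF18 were PERP at 0.03, MSLN at 0.08 and MYL9, a myosin light chain, at 0.12. ADGRL4 had as its nearest genes the metallothionein MT1E at 0.21, the chemokine CXCL5 at 0.28 and the inhibin subunit INHBE at 0.28. With 4 libraries, likeness here mainly means high in the same line.

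The genomic neighbours of these genes did not all share their line pattern. Counted were protein-coding genes within 500 kb of the gene's ends that averaged 1 TPM or more over the vector libraries, a window chosen after the levels were known. Over all genes with vector, 33.7% were past 2-fold, with 12.1% higher and 21.6% lower in 8505C. Around TM4SF1, 2 of 8 neighbours were at least 2-fold higher in 8505C: TM4SF18, itself a member of the set, and TM4SF4. TM4SF4, another gene of the family, was at 3.96 and 2.20 TPM in 8505C with CRABP1 and with vector and listed at 0 in both FTC-133 libraries. Another 6 were within 2-fold, among them WWTR1, which encodes the YAP paralog TAZ, at 78.1 and 93.7 TPM in 8505C with CRABP1 and with vector and 47.1 and 65.2 TPM in FTC-133 with CRABP1 and with vector. TM4SF1-AS1, an antisense gene that overlaps the 5′ end of TM4SF1 by 88 bases, was at 7.62 and 7.60 TPM in 8505C with CRABP1 and with vector and listed at 0 in FTC-133. Without a stated strand setting, reads in that overlap cannot be assigned to either gene. The same holds for ENG and the antisense gene AL162586.1 within it, at 2.72 and 4.02 TPM in 8505C with CRABP1 and with vector and 5.73 and 5.23 TPM in FTC-133 with CRABP1 and with vector.

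Around CDH5, 9 of 10 neighbours were within 2-fold and BEAN1 was higher in 8505C, at 3.26 and 4.37 TPM with CRABP1 and with vector against 1.51 and 1.59 TPM in FTC-133 with CRABP1 and with vector. Around ESM1, 6 of 7 were within 2-fold and SNX18 was lower, at 10.2 and 10.5 TPM in 8505C with CRABP1 and with vector against 31.3 and 30.1 TPM in FTC-133 with CRABP1 and with vector. All 3 measured neighbours of ADGRL4 were at least 2-fold lower in 8505C with vector, beside 21.6% of all genes. IFI44, an interferon-induced gene, was at 1.45 and 1.25 TPM in 8505C with CRABP1 and with vector, against 199 and 135 TPM in FTC-133 with CRABP1 and with vector. IFI44L, its paralog, was at 0.963 and 1.42 TPM in 8505C with CRABP1 and with vector, against 100.2 and 45.8 TPM in FTC-133 with CRABP1 and with vector. PTGFR, the prostaglandin F receptor, was at 0.342 and 0.136 TPM in 8505C with CRABP1 and with vector, against 34.3 and 29.7 TPM in FTC-133 with CRABP1 and with vector.

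**Figure D2:**
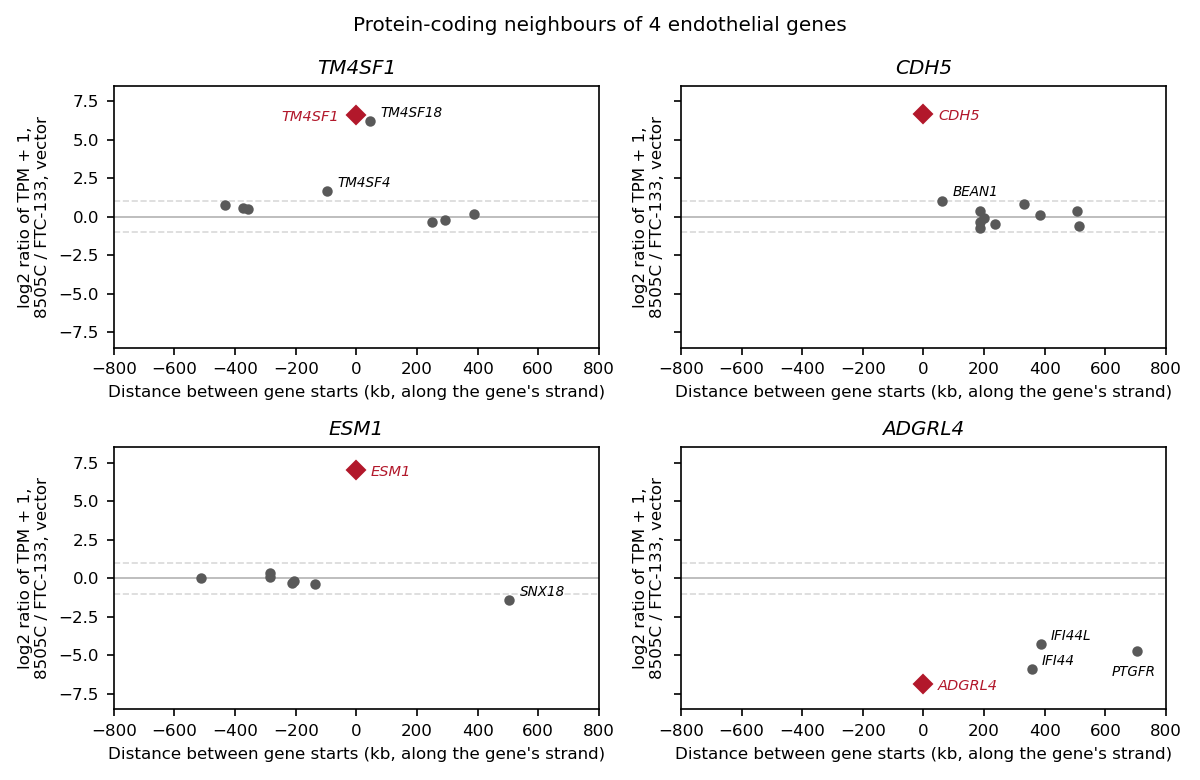
Log2 ratio of TPM + 1, 8505C over FTC-133 with vector, of the protein-coding neighbours (grey points) of TM4SF1, CDH5, ESM1 and ADGRL4 (red diamonds), by distance between gene starts in kb; dashed lines mark 2-fold, and named neighbours are past it. Most neighbours of TM4SF1 (6 of 8), CDH5 (9 of 10) and ESM1 (6 of 7) are within 2-fold, and the 3 neighbours of ADGRL4 are lower in 8505C. Over all genes, 33.7% are past 2-fold and 21.6% are at least 2-fold lower in 8505C.

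The name of the set was checked against 12 defining endothelial markers. CDH5, PECAM1 and VWF are on this list and also in the set, so for these genes the check is not independent. Most of the 12 were low where CDH5 was high. CDH5 and the receptor tyrosine kinase TIE1 were the 2 of 12 that reached 10 TPM in 8505C, and 0 reached it in FTC-133. Their summed level was 123 and 145 TPM in 8505C with CRABP1 and with vector, of which CDH5 made up 97.9 and 103 TPM, and 25.8 and 12.4 TPM in FTC-133 with CRABP1 and with vector. ERG, an ETS factor that marks endothelium, was listed at 0 in both 8505C libraries and was at 6.42 and 3.37 TPM in FTC-133 with CRABP1 and with vector. The VEGF receptor KDR was at 0.210 and 0.719 TPM in 8505C with CRABP1 and with vector and 3.18 and 2.04 TPM in FTC-133 with CRABP1 and with vector. CLDN5, the endothelial claudin, stayed at or below 0.287 TPM in every library. The guidance receptor ROBO4 was at 4.74 and 6.48 TPM in 8505C with CRABP1 and with vector, against 0.404 and 0.131 TPM in FTC-133 with CRABP1 and with vector.

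Among 25 endothelial transcription factors, 19 were measured between the lines. With CRABP1, 7 were at least 2-fold higher and 6 lower in 8505C, with a median log2 ratio of 0.02. With vector the counts were 8 and 7 and the median 0.09. The all-gene shares were 11.3% higher and 23.0% lower with CRABP1 (median -0.21), and 12.1% higher and 21.6% lower with vector (median -0.17). FLI1, the ETS factor closest to ERG, was at 31.9 and 31.1 TPM in 8505C with CRABP1 and with vector, against 3.42 and 2.75 TPM in FTC-133 with CRABP1 and with vector. FOXC2, a forkhead factor of lymphatic vessels, was at 84.1 and 56.7 TPM in 8505C with CRABP1 and with vector, against 0.131 and 0.0633 TPM in FTC-133 with CRABP1 and with vector. ETS1, the highest of the list by mean, was at 122 and 125 TPM in 8505C with CRABP1 and with vector and at 158 and 123 TPM in FTC-133 with CRABP1 and with vector. LYL1, a partner of the blood and vessel factors, was listed at 0 in all 4 libraries, and TAL1 was listed at 0 in all but FTC-133 with CRABP1, where it was at 0.0665 TPM.

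Endothelial receptors and junction genes lay on both sides, some high in 8505C and others in FTC-133. Of 51, 28 were measured with CRABP1, 7 of them at least 2-fold higher and 15 at least 2-fold lower; their median log2 ratio was -1.15. With vector 31 were measured, with 10 higher and 13 lower and a median of -0.80. These counts stand beside the all-gene shares of 11.3% higher and 23.0% lower with CRABP1, and 12.1% higher and 21.6% lower with vector. EGFL7, a secreted vessel factor, was at 42.3 and 47.2 TPM in 8505C with CRABP1 and with vector, against 0.739 TPM and just over 1 TPM in FTC-133 with CRABP1 and with vector. NRP2, a VEGF-C and semaphorin receptor, was at 0.639 and 0.764 TPM in 8505C with CRABP1 and with vector, against 113 and 137 TPM in FTC-133 with CRABP1 and with vector. SELE and SELP, the selectins of activated endothelium, and CLEC14A were listed at 0 in all 4 libraries.

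**Figure D3:**
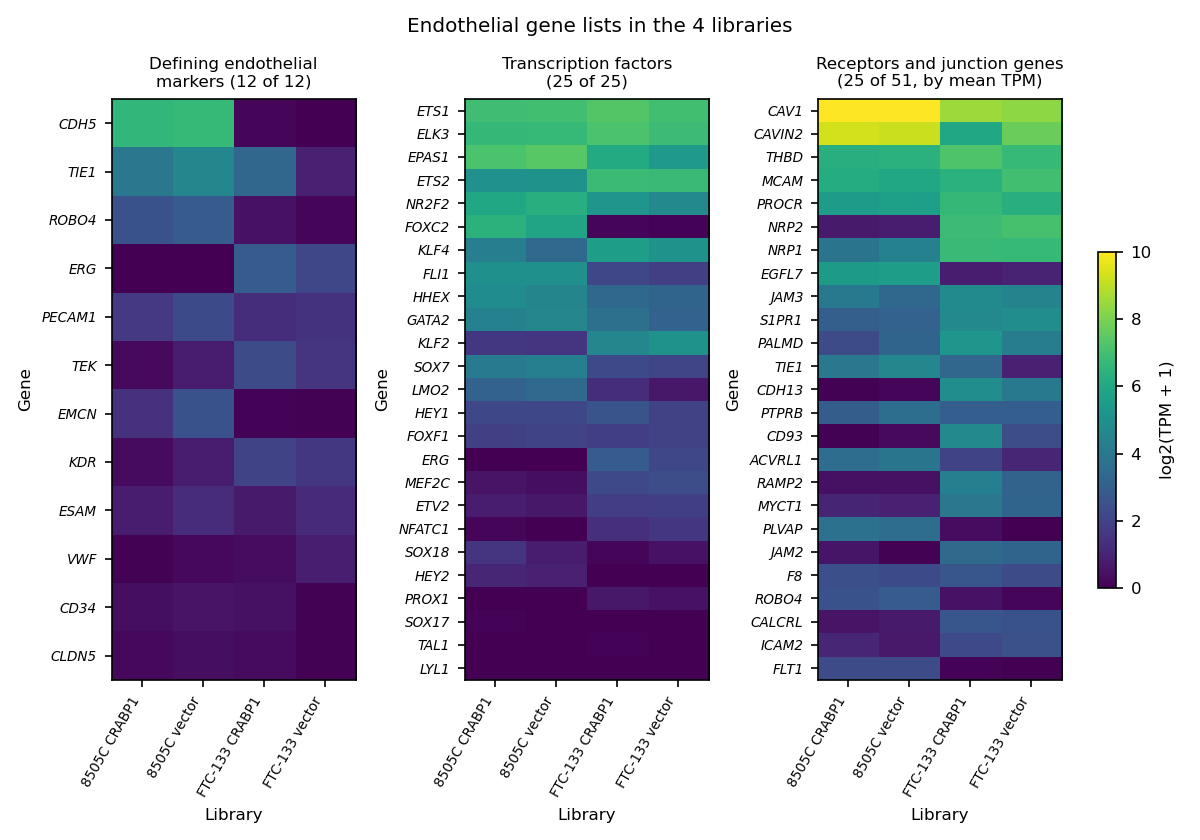
Log2(TPM + 1), shown by colour, of the 12 defining endothelial markers, 25 endothelial transcription factors and 25 of 51 receptors and junction genes with the highest mean TPM, in the 4 libraries. CDH5 stands out among the defining markers of 8505C, and ERG is at 0 there.

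Lists of known partners were read for CDH5, ENG, VWF and PECAM1. All 6 genes of catenins and VE-cadherin partners were measured between the lines. In each pair 3 were at least 2-fold higher in 8505C, beside 11.3% of all genes with CRABP1 and 12.1% with vector. JUP and ARVCF were among them in both pairs, CTNNA1 with CRABP1 only and CTNND1 with vector only. JUP, which encodes plakoglobin and binds cadherin tails, was at 293 and 303 TPM in 8505C with CRABP1 and with vector, against 8.40 and 12.3 TPM in FTC-133 with CRABP1 and with vector. For endoglin, the signalling partner ACVRL1 (ALK1) was at 10.9 and 13.7 TPM in 8505C with CRABP1 and with vector, against 3.12 and 1.13 TPM in FTC-133 with CRABP1 and with vector. The ligand genes GDF2 (BMP9) and BMP10 were listed at 0 in all 4 libraries. ID1, a target of BMP signalling, was at 337 and 353 TPM in 8505C with CRABP1 and with vector, against 32.3 and 47.5 TPM in FTC-133 with CRABP1 and with vector. Of the 18 genes of that list, 16 were measured between the lines. Their median log2 ratio was 0.05 with CRABP1 and 0.03 with vector, against the all-gene medians of -0.21 and -0.17. With CRABP1, 5 were at least 2-fold higher in 8505C and 0 lower, and with vector 4 were higher and 2 lower. The all-gene shares lower were 23.0% with CRABP1 and 21.6% with vector. ID2 went against ID1, at 2.32 and 2.04 TPM in 8505C with CRABP1 and with vector. In FTC-133 ID2 was at 4.88 and 7.39 TPM with CRABP1 and with vector.

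For VWF, 6 of 9 genes of storage, partners and cleavage were measured. Of these, 1 was past 2-fold, beside 34.3% of all genes with CRABP1 and 33.7% with vector. It was GP1BA, a platelet VWF receptor, at 6.20 and 5.71 TPM in 8505C with CRABP1 and with vector against 1.21 and 0.731 TPM in FTC-133 with CRABP1 and with vector. The VWF pseudogene VWFP1 was listed at 0 in every library. Of the VEGF and angiopoietin ligands, 5 of 7 were measured, and VEGFA was at 48.4 and 56.2 TPM in 8505C with CRABP1 and with vector and 198 and 170 TPM in FTC-133 with CRABP1 and with vector. Of the ITIM partners of PECAM1, the phosphatase PTPN11 lay between 123 and 145 TPM, while PTPN6 and INPP5D were at most 0.628 TPM in every library. Within the latrophilin family ADGRL2 was at 2.21 and 1.55 TPM in 8505C with CRABP1 and with vector against 49.9 and 57.4 TPM in FTC-133 with CRABP1 and with vector. All 4 measured genes of that family were lower in 8505C, 3 of them by 2-fold, ADGRL4 included. Over all genes, 23.0% were lower by 2-fold with CRABP1 and 21.6% with vector. TM4SF19 went against TM4SF1, at 2.60 and 2.90 TPM in 8505C with CRABP1 and with vector and 24.4 and 14.1 TPM in FTC-133 with CRABP1 and with vector.

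Markers of other cell types were read beside these levels. Of 11 leukocyte and platelet markers, TYROBP, LYZ and GP9 were listed at 0 in every library, and PTPRC was at most 0.194 TPM. The platelet marker ITGA2B was present in every library, at 0.956 to 2.38 TPM. In FTC-133 with CRABP1 and with vector, CSF1R was at 2.35 and 2.995 TPM and PF4 at 0.941 and 2.74 TPM, PF4 from 3 and 9 reads. The sum of the list was 30.4 and 57.9 TPM in 8505C with CRABP1 and with vector, of which CD14 made up 28.6 and 56.5 TPM. It was 5.52 and 8.89 TPM in FTC-133 with CRABP1 and with vector. The 8 fibroblast markers summed to 76.0 and 55.0 TPM in 8505C with CRABP1 and with vector, of which COL3A1 made up 66.0 and 50.0 TPM, and 560 and 829 TPM in FTC-133 with CRABP1 and with vector, of which COL3A1 made up 2.95 and 3.18 TPM. The 7 pericyte markers summed to 117 and 104 TPM in 8505C with CRABP1 and with vector and 201 and 300.1 TPM in FTC-133 with CRABP1 and with vector. The 6 epithelial markers summed to 1833 and 2208 TPM in 8505C with CRABP1 and with vector and 379 and 343 TPM in FTC-133 with CRABP1 and with vector, nearly all from KRT7, KRT8 and KRT18. EPCAM and KRT19 went the other way. EPCAM was at 0.235 and 0.546 TPM in 8505C with CRABP1 and with vector, against 5.87 and 6.13 TPM in FTC-133 with CRABP1 and with vector. CDH1, the epithelial cadherin, was listed at 0 in 8505C and at or below 0.241 TPM in FTC-133. The 6 thyroid markers summed to 114 and 118 TPM in 8505C with CRABP1 and with vector, nearly all from NKX2-1, and 178 and 154 TPM in FTC-133 with CRABP1 and with vector. The genes behind these sums differed, since in FTC-133 NKX2-1 was at 17.7 and 44.7 TPM with CRABP1 and with vector. PAX8 was at 143 and 100.1 TPM in FTC-133 with CRABP1 and with vector, against 0.161 and 0.240 TPM in 8505C. FOXE1 was also higher in FTC-133. The part of any other cell type in the levels of the 8 genes was not tested.

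With CRABP1 in 8505C, the 6 measured members were all below their vector level, none by 2-fold. Of all genes, 54.7% lay above their vector level. The largest difference was that of PECAM1, at 2.19 TPM from 86 reads with CRABP1 and 3.68 TPM from 145 reads with vector, a ratio of 0.595 (0.450 to 0.782). ESM1 had a ratio of 0.776 (0.723 to 0.832) and ENG of 0.820 (0.770 to 0.872). The ratios of TM4SF1 (0.928, 0.904 to 0.954) and TM4SF18 (0.942, 0.883 to 1.01) were closer to 1, as was that of CDH5 (0.951, from 0.904 to just under 1). ADGRL4 had 3 reads in each 8505C library and VWF 2 with CRABP1 and 9 with vector, too few to read a difference. Over all genes, 7.77% passed 2-fold (3.70% higher and 4.07% lower), and 0.741% when only protein-coding genes of 20 or more reads were counted. The median log2 ratio of the 6 members was -0.20, beside 0.02 over all genes.

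In FTC-133, ADGRL4 and TM4SF1 were higher with CRABP1, both just short of 2-fold. ADGRL4 was at 252 TPM from 4896 reads with CRABP1 and 132 TPM from 2636 reads with vector, a ratio of 1.92 (1.83 to 2.01). TM4SF1 was at 9.49 TPM from 184 reads with CRABP1 and 4.99 TPM from 100 reads with vector, a ratio of 1.90 (1.48 to 2.45). ENG had a ratio of 0.947 (0.891 to 1.01) and PECAM1 of 0.823 (0.574 to 1.17), with intervals that held 1. VWF, below the filter, was 2.97-fold lower with CRABP1 by plain TPM (1.63 to 5.73), from 15 reads with CRABP1 and 46 reads with vector. CDH5, ESM1 and TM4SF18 had at most 7 reads in either library, so a difference was not detectable at this depth. None of the 4 measured members passed 2-fold on TPM + 1, where 10.9% of all genes did (6.02% higher and 4.92% lower) and 3.52% when only protein-coding genes of 20 or more reads were counted. The median log2 ratio of these 4 was 0.37, beside 0.06 over all genes.

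**Figure D4:**
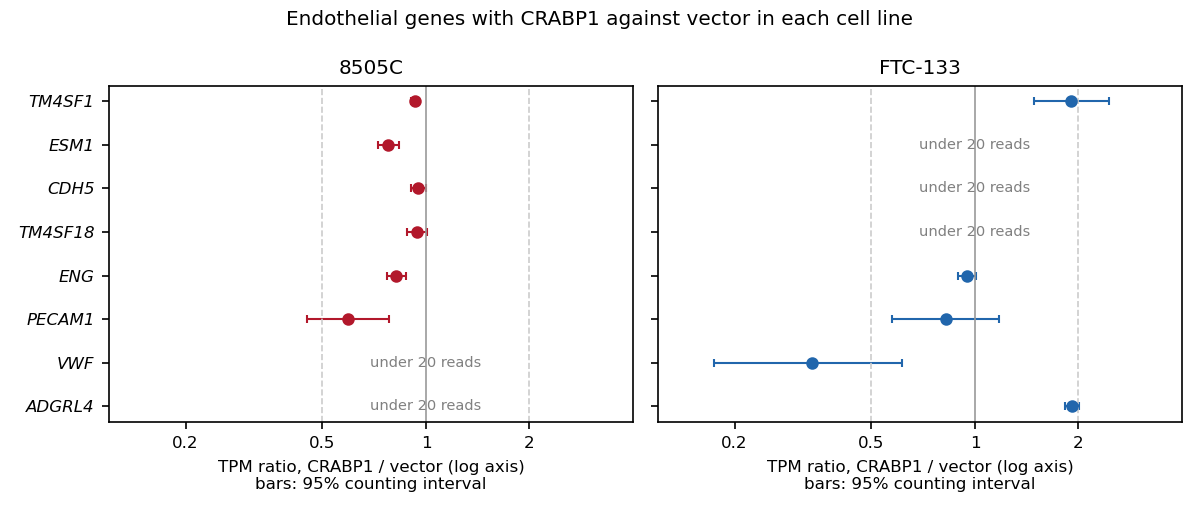
TPM ratio of CRABP1 over vector (log axis) of the 8 genes in 8505C (left) and FTC-133 (right), with the 95% counting interval; dashed lines mark 2-fold, and genes under 20 reads in the pair carry no point. All points of 8505C lie between 0.595 and 0.951, and ADGRL4 and TM4SF1 lie near 1.9 in FTC-133 (1.92 and 1.90).

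Over both lines, 0 of the 7 members tested passed limma with cell line as a term, with adjusted p from 0.920 to 0.992 and 0 at an unadjusted p under 0.05. CDH5, ESM1, TM4SF18 and ADGRL4 had 0 to 7 reads in both libraries of 1 line, so for these the other line alone gave a measurable difference. That limma made no call therefore says nothing on whether the members differed. The fit had 1 residual degree of freedom and called 1 of 19513 genes, CRABP1 itself, which is 0.00512% of them. The limma log2 difference of ADGRL4 was 0.47 (SE 0.28, adjusted p = 0.920), higher in FTC-133 and from 3 reads in each library of 8505C. That of TM4SF1 was 0.35 (SE 0.26, adjusted p = 0.920), with opposite signs in the lines. That of ENG was -0.18 (SE 0.11, adjusted p = 0.920) and that of PECAM1 -0.36 (SE 0.30, adjusted p = 0.922).

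Some endothelial genes outside the 8 differed more with CRABP1. Of 24 measured receptors and junction genes in FTC-133, 18 were higher, 4 of them by 2-fold, and 1 was lower by 2-fold; their median log2 ratio was 0.31. Over all genes in FTC-133, 57.8% had a ratio above 1, 6.02% were higher and 4.92% lower by 2-fold, and the median was 0.06. TIE1 was at 8.76 TPM with CRABP1 and 0.877 TPM with vector, a ratio of 9.99 (6.91 to 14.8), from 309 reads with CRABP1 and 32 with vector. CD93, a C-type lectin-like receptor of vessels, was at 25.2 TPM with CRABP1 and 4.23 TPM with vector, a ratio of 5.96 (5.01 to 7.10). RAMP2, the adrenomedullin receptor partner, had a ratio of 2.34 (1.67 to 3.35) and PALMD, which encodes palmdelphin, of 2.07 (1.90 to 2.26). CAVIN2, a coat protein of caveolae, was lower, at 62.7 TPM with CRABP1 and 218 TPM with vector, a ratio of 0.288 (0.269 to 0.308). In 8505C, 20 were measured, 6 higher and 14 lower, with 1 past 2-fold and a median of -0.16, beside 54.7% above 1, 7.77% past 2-fold and a median of 0.02 over all genes. The gene past 2-fold was EMCN, the endothelial sialomucin endomucin, at 1.68 TPM with CRABP1 and 4.68 TPM with vector, a ratio of 0.359 (0.251 to 0.511).

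On TPM + 1, 0 of 16 measured transcription factors of the endothelial list passed 2-fold with CRABP1 in 8505C (median log2 ratio -0.03) and 0 of 18 in FTC-133 (median 0.26, 13 higher). The all-gene share past 2-fold was 7.77% in 8505C (median 0.02) and 10.9% in FTC-133 (median 0.06, 57.8% above 1). By plain TPM, SOX18 passed it in 8505C, with a ratio of 2.58 (1.03 to 7.31) from 18 reads with CRABP1 and 7 with vector. LMO2 passed it in FTC-133, with a ratio of 2.64 (1.20 to 6.02) from 25 reads with CRABP1 and 10 with vector. Also by plain TPM, ERG in FTC-133 had a ratio of 1.91 (1.55 to 2.36) and EPAS1 (HIF-2α) of 1.62 (1.53 to 1.73), while EPAS1 in 8505C had a ratio of 0.865 (0.834 to 0.897). ACVRL1, the partner of endoglin, had a ratio of 2.76 (1.81 to 4.32) in FTC-133 and 0.797 (0.679 to 0.936) in 8505C. Beside these, in FTC-133 the fibroblast gene COL1A1 was at 175 TPM with CRABP1 and 388 TPM with vector. It was the 1 of 6 measured fibroblast markers past 2-fold, beside 10.9% of all genes. Of these 6, 2 were higher and 4 lower, with a median log2 ratio of -0.09. Of 6 measured pericyte markers in FTC-133, 4 were lower and 2 higher, with a median log2 ratio of -0.63. The higher ones were RGS5 and PDGFRB, the latter at 18.5 TPM with CRABP1 and 9.60 TPM with vector. The whole pericyte list summed to 201 TPM with CRABP1 and 300.1 TPM with vector. The part of such shifts in the endothelial genes was not tested.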

How the data were processed

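Total RNA of 4 libraries, 1 per group, was sequenced by Illumina, and the authors deposited 1 table of TPM values for 58884 Ensembl genes. FastQC, Trimmomatic 0.38, featureCounts 2.0.0 and GRCh38 are named per the submitters' processing notes; for the aligner, the annotation and the strand setting, nothing is stated: each is not given in the sources used here. Every column was assigned by its name.

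TPM times the union exon length of GENCODE 29 (58611 identifiers matched) gave whole numbers of reads, after 1 scaling factor for each library, in 90.5% to 91.6% of values of up to 50 reads, within 0.02 of a read. These recovered reads gave Poisson and Clopper-Pearson 95% intervals and floors of 3 reads, which cover counting error only. Log2 ratios used TPM plus 1 over genes that averaged 1 TPM or more, and passing meant at least 2-fold. With 1 library per group no test was made within a line. Limma 3.58.1 (R 4.3.3, mean-variance trend, cell line as a term, two-sided, Benjamini-Hochberg at 0.05 over all genes) was fitted over both lines, which then act as replicates, and its p-values measure the spread of these libraries alone; it was tested on simulated data. The rest used pandas 2.3.3, SciPy 1.17.1 and NumPy 2.4.6 under Python 3.11.15. Motif windows came from RefSeq.

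The members and lists were chosen with earlier results of these data known. The rule for the text was to name the 8 members and up to 4 genes of each list (the highest in mean TPM or past 2-fold). The 3 genes with the nearest profile to each member with at least 20 reads and a 2-fold range were added. The rule was not kept in every list. The highest by mean was left out for receptors and junction genes (CAV1), VWF storage (CD63) and pericyte markers (MCAM). The neighbours, the motifs and list genes beyond that rule were chosen after their values were seen. Tried as alternatives were median-ratio scaling, a filter at 5 TPM, no filter, a pseudocount of 0.1, removal of mitochondrially encoded genes, a 1.5-fold threshold and, for limma, no trend and no term for cell line.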

Additional observations from a re-analysis of the deposited data

Results flagged for a closer look

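The genes below had CRABP1 over vector TPM ratios on opposite sides of 1 in the 2 lines, with counting intervals that both leave out 1. The difference between the lines was not tested, since each group held 1 library. Of the members and list genes, 19 met this. Those given are the 1 member and the 3 list genes that were also past 1.5-fold in both lines. The share of all genes that met the rule was not counted. Counting intervals narrow with reads, so a gene with many reads met it at a small difference. TM4SF1 did so in 8505C, from 10198 reads with CRABP1 and 11018 with vector. TM4SF1 had a ratio of 0.928 in 8505C and 1.90 in FTC-133. TIE1 had a ratio of 0.631 in 8505C and 9.99 in FTC-133. PALMD had a ratio of 0.485 in 8505C and 2.07 in FTC-133. NOTCH3, a Notch receptor listed among pericyte markers, had a ratio of 1.72 in 8505C and 0.523 in FTC-133.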

How the results depend on the processing

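Between the lines, the count of members past 2-fold was 5 with CRABP1 under every alternative, and 5 or 6 with vector, where PECAM1 joined with a pseudocount of 0.1 and at 1.5-fold. With CRABP1 in 8505C it was 0 under every alternative. In FTC-133 it was 0 except at 1.5-fold, where it was 2 of 4 (ADGRL4 and TM4SF1). At 1.5-fold, 22.7% of all genes passed in FTC-133 and 15.0% in 8505C. Between the lines it was 52.3% with CRABP1 and 52.5% with vector. The limma call of CRABP1 itself was kept at a mean of at least 5 TPM and lost, leaving 0 genes, with no filter, a pseudocount of 0.1, median-ratio scaling, removal of mitochondrially encoded genes, no trend or no term for cell line (smallest adjusted p by limma from 0.102 to 0.844); the cause was not tested. Members passed under 0 of these fits. Of 72 alternative values of 24 member log2 ratios, 64 counted as unmoved, 8 as moved, and 0 called ones changed sign. The limit for a shift was the distance from the middle of the counting interval to its end, in log2. Where a library had 0 reads the interval had no upper end, so such a ratio counted as unmoved whatever its shift. For 8505C over FTC-133 with vector, a pseudocount of 0.1 took CDH5 from 6.70 to 10.01 and ESM1 from 7.07 to 10.38. Both are among the 64, which says nothing on their stability. Median-ratio scaling turned the uncalled ENG ratio of 8505C over FTC-133 with CRABP1, -0.09, to 0.10; it put the median of all genes at -0.02 in place of -0.21 with CRABP1 and at -0.03 in place of -0.17 with vector. The limma term for cell line pairs CRABP1 with vector by line. No pairing by replicate number was possible, since each group held 1 library, and leaving out a library leaves limma no residual degree of freedom. Low reads limit CDH5, ESM1 and TM4SF18 in FTC-133 and ADGRL4 and VWF in 8505C.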
